A study of Homo sapiens with 11 samples.

Results

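The genes described here carry glucose to lactate or into the mitochondrion. They are 38 genes chosen by symbol: glucose transporters, the enzymes of each glycolytic step, lactate dehydrogenases, lactate and pyruvate carriers, the pyruvate dehydrogenase E1 subunits and their kinases, and a few genes of glycogen and gluconeogenesis. All 38 were found among the 28252 genes of the RNA-Seq files, and 37 of them among the counted promoters of the H3K4me3 files, which list 26237 genes, because GPI stood at 0 in all 3 libraries and was treated as not counted. RNA-Seq was available for RT4, a human urinary bladder epithelial line, with 2 libraries each of untreated (UT), nickel-exposed (Ni-E) and nickel-washed-out (Ni-W) cells. H3K4me3 ChIP-Seq was available for BEAS-2B, a human bronchial epithelial line, with 1 library for each condition, and its 2 input libraries were not used here. Ni-E cells of both lines had received 100 μM NiCl2 for 6 weeks. RT4 Ni-W cells then grew for 2 weeks in medium free of nickel. For BEAS-2B Ni-W cells the labels give 2 weeks in one place and more than 6 months for the population examined, which had been expanded from a single colony and so stands for 1 clone. No group carried an engineered allele.

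Glycolysis splits glucose into pyruvate in the cytosol and yields a small amount of ATP. Pyruvate is then either reduced to lactate by lactate dehydrogenase, which restores NAD+, or carried into the mitochondrion and oxidised by pyruvate dehydrogenase, which the PDK kinases switch off. Many of these genes are textbook targets of the hypoxia-inducible factors (HIF), whose degradation depends on iron-containing prolyl hydroxylases, and nickel ions are known to stabilise HIF-1α in cultured cells. HIF binds DNA at a short core, ACGTG or GCGTG, found in many promoters.

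RefSeq gave a promoter for 35 of the 38 genes on GRCh38.p14. The core, searched as ACGTG and GCGTG on both strands over the 250 bases before the start, was present in 37 of 67 windows of these genes (55.2%), compared with 15172 of 35116 windows of all genes (43.2%). Windows were counted for each annotated start, 67 for 35 genes here and 35116 for 27305 genes in all. HK1 and PFKM had 7 each, so windows of 1 gene can repeat a match, and no share per gene was taken. The 250 bases before the start are printed for 6 genes whose transcripts changed in RT4 cells, as described below, so that genes with and without the core can be compared. The windows lie at chr1:42958869-42959118 on the minus strand for SLC2A1, chr3:48556804-48557053 on the minus strand for PFKFB4, chr7:134646603-134646852 on the plus strand for BPGM, chr12:6914330-6914579 on the plus strand for ENO2, chr11:18394313-18394562 on the plus strand for LDHA and chr2:172555840-172556089 on the plus strand for PDK1. Each is written 5′ to 3′ on the strand of the gene, and capitals mark the core on either strand.
SLC2A1: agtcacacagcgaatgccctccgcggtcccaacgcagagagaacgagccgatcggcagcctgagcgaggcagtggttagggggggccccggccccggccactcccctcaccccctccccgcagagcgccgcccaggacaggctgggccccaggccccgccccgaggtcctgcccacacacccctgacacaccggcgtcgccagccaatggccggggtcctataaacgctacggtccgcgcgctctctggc
PFKFB4: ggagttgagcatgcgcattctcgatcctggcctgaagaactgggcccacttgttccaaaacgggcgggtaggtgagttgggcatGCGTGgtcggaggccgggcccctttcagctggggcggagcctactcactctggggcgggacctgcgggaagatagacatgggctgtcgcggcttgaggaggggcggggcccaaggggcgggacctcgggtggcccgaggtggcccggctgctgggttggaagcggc
BPGM: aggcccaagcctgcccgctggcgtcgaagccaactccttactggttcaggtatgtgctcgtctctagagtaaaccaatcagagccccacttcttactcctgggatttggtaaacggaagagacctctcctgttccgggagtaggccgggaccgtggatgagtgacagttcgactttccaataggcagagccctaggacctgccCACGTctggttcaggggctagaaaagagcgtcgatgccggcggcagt
ENO2: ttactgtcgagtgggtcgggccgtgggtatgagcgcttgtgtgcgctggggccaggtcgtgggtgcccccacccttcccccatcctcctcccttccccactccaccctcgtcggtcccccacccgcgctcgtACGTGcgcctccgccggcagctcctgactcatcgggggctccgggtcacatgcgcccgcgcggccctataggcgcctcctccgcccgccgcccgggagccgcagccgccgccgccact
LDHA: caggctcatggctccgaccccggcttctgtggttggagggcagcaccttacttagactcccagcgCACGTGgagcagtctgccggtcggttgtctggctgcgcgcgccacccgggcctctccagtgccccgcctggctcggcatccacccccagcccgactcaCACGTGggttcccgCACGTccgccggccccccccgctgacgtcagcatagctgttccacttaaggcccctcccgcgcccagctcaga
PDK1: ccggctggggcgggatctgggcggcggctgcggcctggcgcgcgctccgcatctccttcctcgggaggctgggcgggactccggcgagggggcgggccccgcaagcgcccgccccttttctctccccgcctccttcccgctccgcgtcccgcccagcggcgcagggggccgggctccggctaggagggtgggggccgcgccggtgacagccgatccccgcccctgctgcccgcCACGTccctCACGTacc
The LDHA window held 5 matches, which fall into 3 places because CACGTG reads as a match on both strands. PDK1 had 2 matches close to the start, PFKFB4, ENO2 and BPGM had 1 each, and the SLC2A1 window had none. A match is a stretch of letters and was not tested as a binding site, and its absence says nothing of sites elsewhere.

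In RT4 cells under nickel, transcripts of genes along most of the pathway were higher than in UT cells, from the glucose transporters to LDHA and PDK1, while MPC1, PDK4 and FBP1 were lower in the fit that paired the libraries. The median log2 fold change of the 38 genes in Ni-E vs UT was 0.48, compared with -0.01 over all 14502 genes tested, and within the first and the duplicate libraries alone it was 0.48 and 0.55. Tested with edgeR on estimated counts, at an adjusted p below 0.05 and at least 1.5-fold, 4 genes rose, SLC2A3, PFKFB4, ENO2 and LDHA, against 1.45% of all genes. Of these, SLC2A3 passed the filter on low counts only through the nickel libraries, so its call carries no weight, and with at least 10 counts required in every library the count was 3. No gene fell, against 0.71% of all genes. At an unadjusted p below 0.05, 15 genes were higher and 1 lower, where 7.19% and 5.03% of all genes were. The libraries of each condition come as a first sample and a duplicate, and differences between these had the same sign in all 3 conditions for 29 of the 38 genes (17 higher in the first, 12 in the duplicate) and, among all 14502, for 5153 and 5423. With the pair as a block, 18 genes rose, against 7.64% of all genes, and 3 fell, against 5%. SLC2A3 is among these 18, and its call carries no weight there either. With a single library left out, 1 group keeps 1 library, so only effect sizes are given. The unpaired median log2 fold change of the 38 genes was then 0.42 to 0.58, against -0.03 to 0.01 over all genes. By DESeq2 9 genes rose, against 2.79% of all genes, and 0 fell, against 1.63%. A gene is called below on the pair-blocked fit unless the unpaired fit is named.

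In counts scaled to library size (CPM) the Ni-E and UT libraries did not overlap for 25 genes that were higher and 5 that were lower, where 20.3% and 19.3% of all genes did so. Since the RNA comes from whole cultures, a change in the share of cells and a change in RNA per cell cannot be told apart. The urothelial markers were present, with 14 of 14 tested and a summed level of 13570 to 17119 TPM. The bronchial epithelial list, which shares KRT7, KRT8, KRT18, KRT19, EPCAM and CDH1, summed to 12547 to 16095 TPM in the same libraries. The sum therefore says little of urothelial identity. UPK1A and KRT20, genes of differentiated urothelium, fell in Ni-E cells, by 2.27 (adjusted p = 0.0377) and 6.03 (adjusted p = 0.0085) on the log2 scale in the unpaired edgeR fit. With the block UPK1B, UPK2, UPK3A and FOXA1 fell too. In Ni-W vs UT, KRT20 fell by 2.97 (adjusted p = 0.0294 in the unpaired fit) and UPK1A by 1.01 with the block. The 5 leukocyte markers summed to at most 0.81 TPM. The 5 fibroblast markers summed to 1.06 to 1.73 TPM in UT, 2.98 to 4.68 in Ni-E and 2.31 to 5.13 in Ni-W libraries, almost all from COL3A1 and COL1A1, and COL1A2 and DCN were at 0. COL3A1 rose in Ni-E with the block (adjusted p = 3.56e-05). COL1A1 did not, with log2 fold changes of -0.30 in Ni-E and -0.29 in Ni-W and no call, so the higher sums rest on a single gene. The part of these in the results was not tested. Total estimated counts were 17075833 to 18280556 in the first libraries and 25721265 to 27736454 in the duplicates, so depth moves with the pairs and not with the condition.

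**Figure D1:**
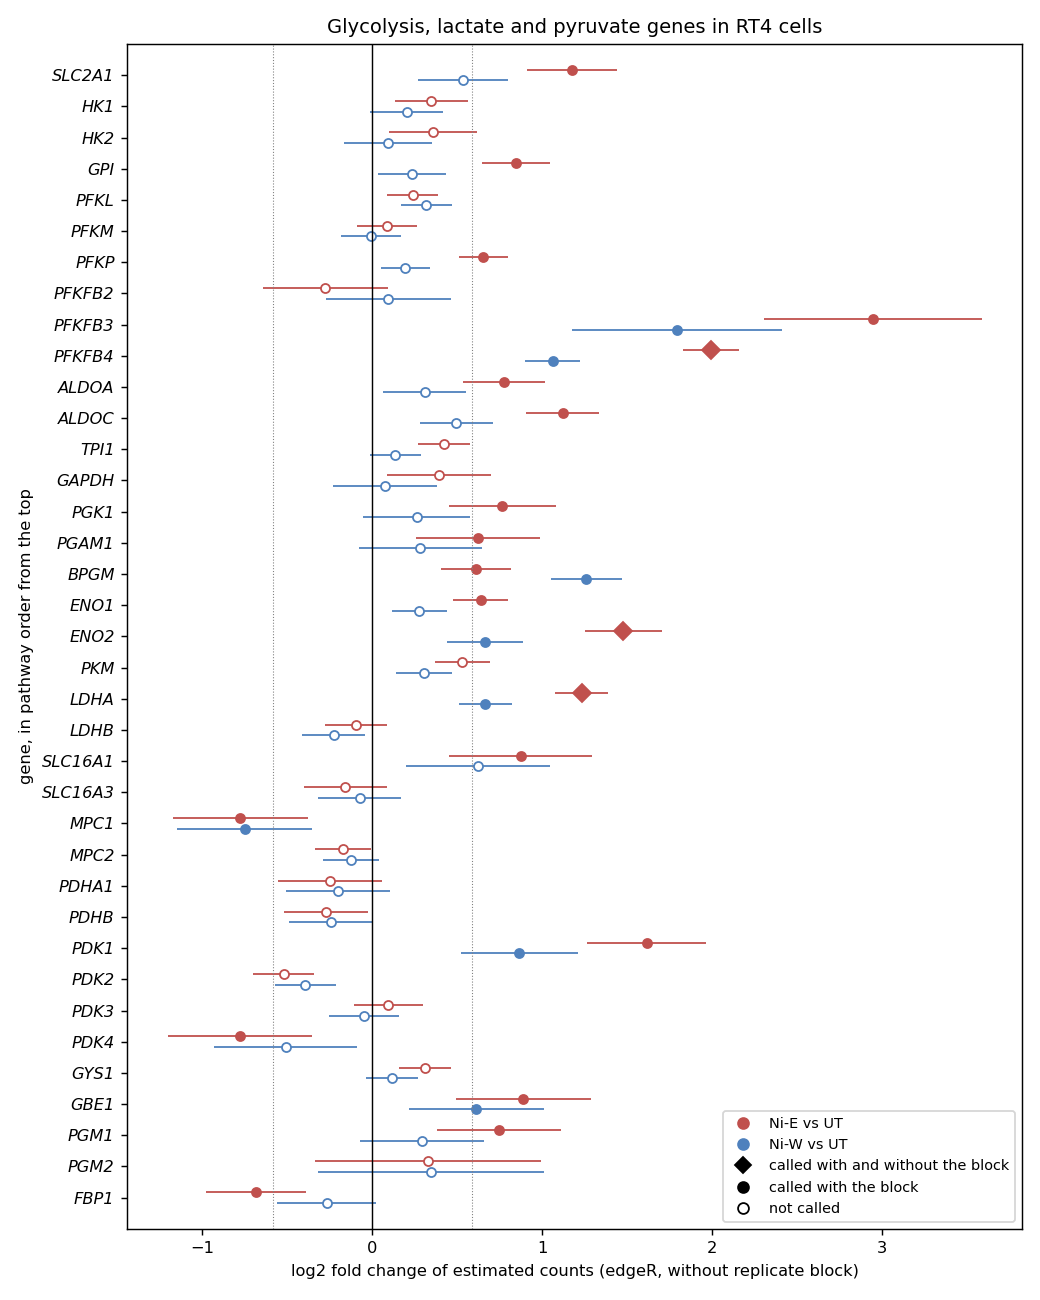
Log2 fold change against UT cells (x axis) of 37 genes in pathway order (y axis), red for Ni-E and blue for Ni-W, with the standard error derived from the unpaired edgeR test as bars and dotted lines at 1.5-fold. SLC2A3 is left out because UT cells had almost no reads. PFKFB3 lies farthest to the right at 2.95 in Ni-E, most red points from SLC2A1 to LDHA lie right of 0, and MPC1, PDK4 and FBP1 lie left of it.

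Glucose enters through the SLC2A facilitators. SLC2A1, the widespread basal glucose transporter, had 113.9 and 68.23 TPM in the UT libraries, 245.4 and 165.2 in Ni-E and 175.9 and 99.78 in Ni-W. Both Ni-E libraries were above both UT libraries, and the Ni-W libraries overlapped with UT in TPM but lay above both UT libraries in CPM, at 274 and 203.6 against 191.8 and 138.3. The log2 fold change in Ni-E was 1.18 (SE 0.0914, adjusted p = 1.27e-05 in edgeR with the block, and 0.109 without it). SLC2A3, the high-affinity transporter best known from neurons, was listed at 0 and 0.03 TPM in UT, 3.55 and 3.23 in Ni-E and 3.96 and 2.06 in Ni-W. It was nearly silent before exposure and present in all nickel libraries, and it passed the filter on low counts only through them. The 2 UT libraries held 2 reads in all, against 325 in Ni-E and 248 in Ni-W, which is 157-fold (95% counting interval 43.2 to 1300) and 126-fold (34.6 to 1050). These intervals pool the reads of each condition and cover counting error only, not the spread between libraries. They give the call no weight. SLC2A1 still made up at least 97.8% of the summed TPM of the 2 transporters in every library.

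HK1 and HK2, the hexokinases that trap glucose as its 6-phosphate, had log2 fold changes of 0.35 and 0.37 in Ni-E, below the 1.5-fold bound (adjusted p = 0.0228 and 0.028). GPI, which turns glucose 6-phosphate into fructose 6-phosphate, had 274.6 and 268.6 TPM in UT, 499.3 and 487.7 in Ni-E and 330.9 and 328.2 in Ni-W. The 3 conditions did not overlap in TPM, although UT and Ni-W did in CPM, and GPI rose by 0.85 (SE 0.0975, adjusted p = 0.000181 in edgeR with the block, 0.123 without it). PFKP, the platelet-type phosphofructokinase, rose by 0.65 (SE 0.0912, adjusted p = 0.000677, without the block 0.107). PFKL and PFKM, the liver and muscle types, had 0.24 and 0.09 and passed no test.

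Fructose 2,6-bisphosphate, made by the PFKFB enzymes, is the strongest known activator of phosphofructokinase. PFKFB4 had 18.24 and 16.59 TPM in UT, 73.69 and 65.34 in Ni-E and 40.74 and 34.21 in Ni-W. The conditions did not overlap, and the Ni-W libraries lay between the others. The log2 fold change in Ni-E was 1.99 (SE 0.166, adjusted p = 0.011 in the unpaired edgeR fit), the smallest adjusted p of all 38 genes there. PFKFB3, an isozyme with far more kinase than phosphatase activity, had 8.92 and 3.67 TPM in UT, 64.26 and 30.3 in Ni-E and 35.37 and 10.54 in Ni-W. In each pair the order was UT, Ni-W, Ni-E, although the duplicate was at less than the first library throughout. Its log2 fold change was 2.96 with the block (SE 0.143, adjusted p = 6.9e-07) and 2.95 without it (SE 0.641, adjusted p = 0.101). PFKFB2, the heart isozyme, passed no test and its share of the summed TPM of the 3 isozymes was 31.8% and 27.2% in UT, 6.8% and 6.7% in Ni-E and 17.5% and 13.8% in Ni-W.

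Aldolase splits fructose 1,6-bisphosphate. ALDOA, the muscle aldolase and by far the more abundant, had 1681 and 1911 TPM in UT, 2974 and 3219 in Ni-E and 1994 and 2504 in Ni-W. ALDOC, the brain aldolase, had 24.76 and 22.17 TPM in UT, 50.38 and 52.31 in Ni-E and 33.64 and 34.22 in Ni-W. Neither gene's Ni-E libraries overlapped with UT, and ALDOA made up 98.3% to 98.9% of the summed TPM of the pair. ALDOC rose by 1.12 (SE 0.13, adjusted p = 0.000203, without the block 0.0738) and ALDOA by 0.79 (SE 0.107, adjusted p = 0.000586, without the block 0.244). TPI1, which interconverts the triose phosphates, had a log2 fold change of 0.42 (adjusted p = 0.0093 with the block), short of 1.5-fold.

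The three-carbon steps run from GAPDH to PKM. GAPDH, the most abundant of the 38 transcripts, had 10658 and 11911 TPM in UT, 14450 and 15692 in Ni-E and 10719 and 13621 in Ni-W, and its log2 fold change of 0.41 did not reach 1.5-fold (adjusted p = 0.0348). PGK1, which makes the first ATP of the pathway, rose by 0.77 (SE 0.094, adjusted p = 0.000265), PGAM1, the phosphoglycerate mutase, by 0.64 (SE 0.103, adjusted p = 0.00171) and ENO1, the widespread enolase, by 0.64 (SE 0.1, adjusted p = 0.00147), in edgeR with the block. Without the block their adjusted p was 0.422, 0.674 and 0.145. PKM, the pyruvate kinase gene, had a log2 fold change of 0.53 and fell short of 1.5-fold.

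ENO2, the neuronal enolase, had 43.53 and 42.35 TPM in UT, 121.7 and 119.8 in Ni-E and 67.2 and 72.44 in Ni-W. The pairs of libraries were close to each other and the 3 conditions did not overlap. It rose by 1.48 (SE 0.227, adjusted p = 0.0416 in the unpaired edgeR fit), but ENO1 remained at 92.9% or more of enolase TPM in every library. BPGM makes 2,3-bisphosphoglycerate from a glycolytic intermediate, for which it is best known in red blood cells. It had 142.6 and 140.9 TPM in UT, 204.8 and 230 in Ni-E and 360.8 and 342.1 in Ni-W, the Ni-W libraries being the highest. It rose in Ni-E by 0.61 (SE 0.0919, adjusted p = 0.00115) and in Ni-W by 1.26 (SE 0.0926, adjusted p = 1.6e-05), and Ni-W was above Ni-E by 0.65 (adjusted p = 0.00242), in edgeR with the block. Without it the adjusted p in Ni-W was 0.0815.

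**Figure D2:**
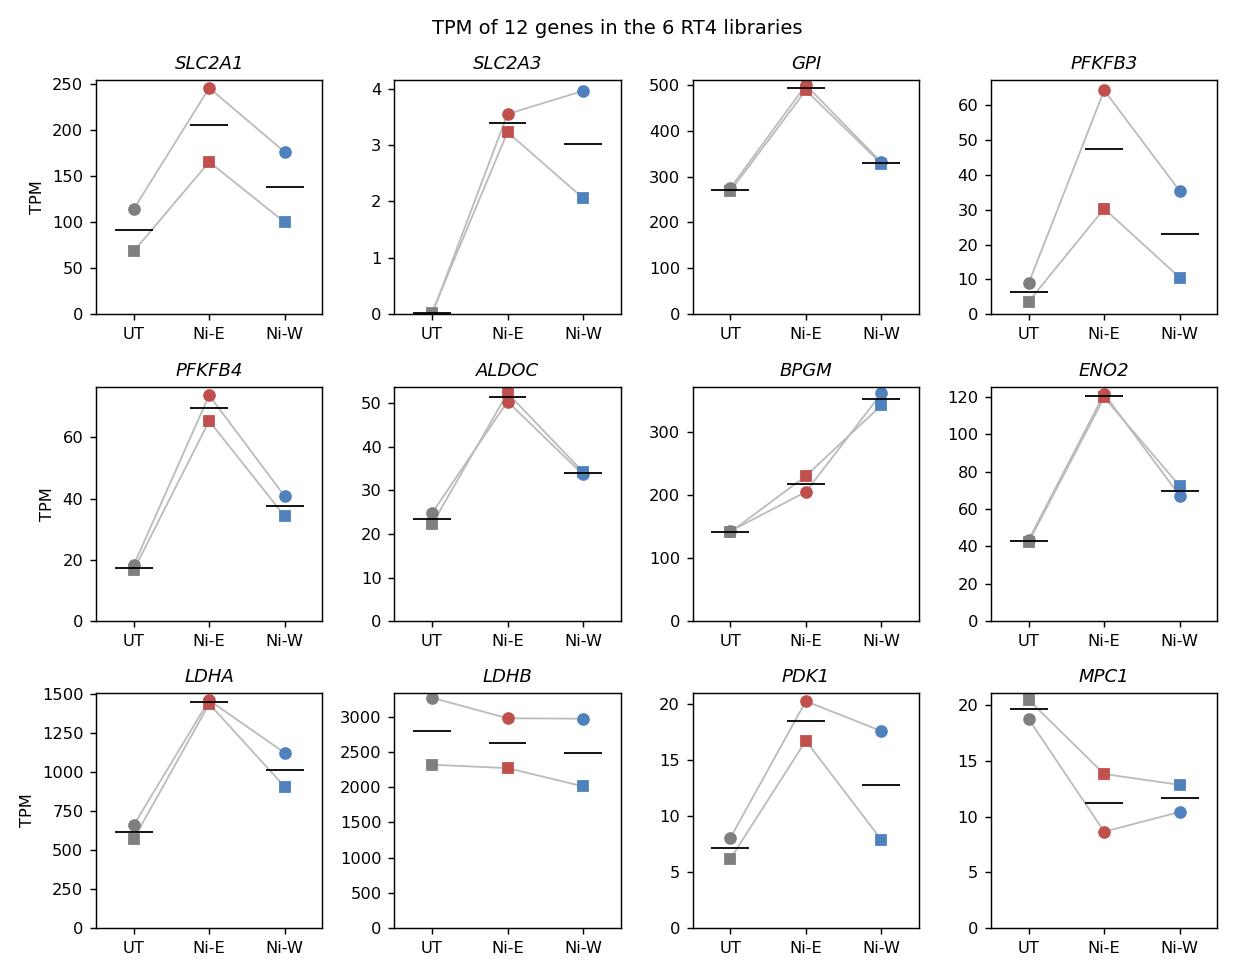
TPM (y axis, from 0) of 12 genes in UT, Ni-E and Ni-W libraries (x axis). Circles are the first libraries and squares the duplicates, grey lines join libraries with the same label and black bars are the means. ENO2 reached 121.7 and 119.8 TPM in Ni-E and BPGM its highest levels in Ni-W, 360.8 and 342.1.

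Lactate dehydrogenase is built from the LDHA and LDHB subunits. LDHA, the subunit that favours lactate formation, had 658.2 and 570 TPM in UT, 1458 and 1435 in Ni-E and 1121 and 904.5 in Ni-W, with no overlap between conditions. It rose in Ni-E by 1.23 (SE 0.158, adjusted p = 0.028 in the unpaired edgeR fit). LDHB, the heart-type subunit, had a log2 fold change of -0.10 and passed no test. LDHA made up 16.8% and 19.7% of the summed TPM of both in UT, 32.9% and 38.7% in Ni-E and 27.4% and 31% in Ni-W, so LDHB remained the larger in all libraries. Of the carriers that take lactate across the cell membrane, SLC16A1, or MCT1, rose by 0.92 (SE 0.188, adjusted p = 0.00704, without the block 0.54), from a low level of 3.59 and 1.5 TPM in UT. SLC16A3, or MCT4, which exports lactate from glycolytic cells, was at 6.4 to 8.42 TPM in all libraries and passed no test.

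Pyruvate enters mitochondria through a carrier of MPC1 and MPC2. MPC1 had 18.77 and 20.49 TPM in UT, 8.65 and 13.83 in Ni-E and 10.42 and 12.86 in Ni-W. All nickel libraries lay below both UT libraries. MPC1 fell by 0.80 in Ni-E (SE 0.194, adjusted p = 0.0167) and by 0.77 in Ni-W (adjusted p = 0.0291) with the block, but without it the adjusted p was 0.582 and 0.76. MPC2, PDHA1 and PDHB, the last 2 being the E1 subunits of pyruvate dehydrogenase, had log2 fold changes of -0.17, -0.24 and -0.28 in Ni-E and passed no test.

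PDK1 is the pyruvate dehydrogenase kinase best known as a HIF target. It had 8.03 and 6.16 TPM in UT, 20.24 and 16.71 in Ni-E and 17.58 and 7.87 in Ni-W, where the duplicate lay within the UT range in TPM, although in CPM both Ni-W libraries (43.33 and 23.53) were above both UT libraries (21 and 15.62). PDK1 rose in Ni-E by 1.62 (SE 0.151, adjusted p = 4.41e-05 with the block, 0.0995 without). PDK4, the isozyme known to rise with fasting, fell by 0.74 (SE 0.201, adjusted p = 0.0282 with the block, 0.626 without), and its UT and Ni-E libraries overlapped in TPM (4.6 and 2.13, against 2.4 and 1.48) but not in CPM (8.33 and 4.63, against 4.47 and 3.1). PDK2 had a log2 fold change of -0.52, below 1.5-fold, and PDK3 of 0.10. PDK1 accounted for 12.6% and 12.9% of the summed TPM of the 4 kinases in UT, 33.6% and 31.6% in Ni-E and 24.8% and 18% in Ni-W.

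**Figure D3:**
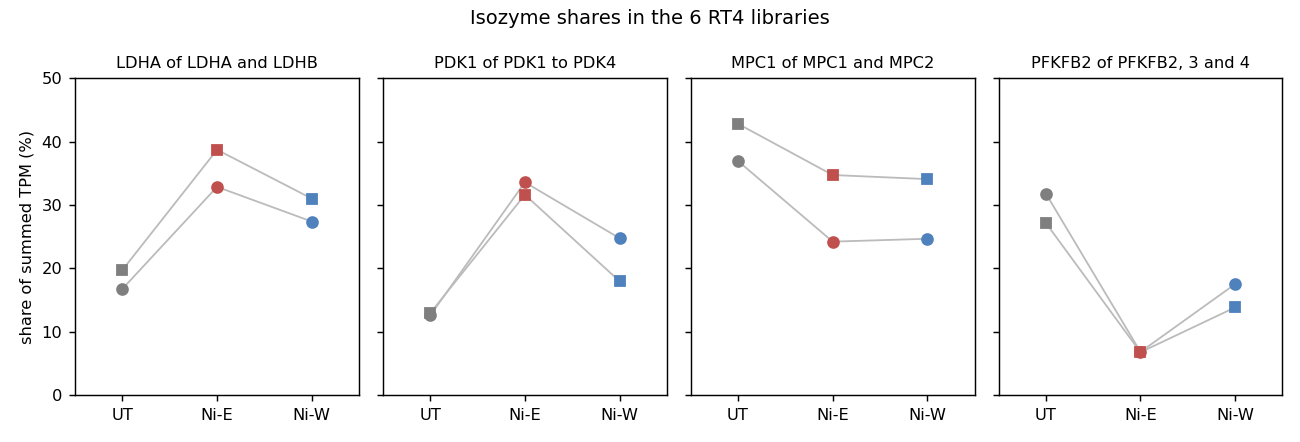
Share of an isozyme in the summed TPM of its family (y axis, percent) in the UT, Ni-E and Ni-W libraries (x axis), circles for first and squares for duplicate libraries. The share of LDHA went from 16.8% and 19.7% in UT to 32.9% and 38.7% in Ni-E, that of PDK1 from 12.6% and 12.9% to 33.6% and 31.6%, and those of MPC1 and PFKFB2 were lower in Ni-E than in UT.

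Around the pathway, GBE1, the glycogen branching enzyme, rose by 0.92 (SE 0.139, adjusted p = 0.00111) and PGM1, which links glycogen to glycolysis, by 0.75 (SE 0.113, adjusted p = 0.0011), in edgeR with the block, while their unpaired adjusted p was 0.484 and 0.557. GYS1, the muscle glycogen synthase, and PGM2, which acts on pentose phosphates, passed no test. FBP1, which runs the phosphofructokinase step in reverse in gluconeogenesis, had 241.4 and 273 TPM in UT, 154.3 and 170.6 in Ni-E and 196.6 and 240.8 in Ni-W. It fell in Ni-E by 0.67 (SE 0.11, adjusted p = 0.00179 with the block, 0.449 without).

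The median log2 fold change of the 38 genes in Ni-W vs UT was 0.25, compared with 0.00 over all genes, and it was 0.19 and 0.20 within the first and the duplicate libraries. SLC2A3 alone was called in the unpaired fit, against 0.503% of all genes. It passed the filter only through the nickel libraries, and with at least 10 counts in every library the count was 0. With a single library left out the median log2 fold change of the 38 genes was 0.11 to 0.32, against -0.02 to 0.03 over all genes. No gene fell, against 0.0965%, and at an unadjusted p below 0.05, 7 were higher and 0 lower, where 5.99% and 3.14% of all genes were. With the block 8 genes rose, SLC2A3 with the same limit among them, against 5.79% of all genes, and MPC1 fell, against 2.78%. Besides SLC2A3, BPGM and MPC1, these were PFKFB3 (1.73, adjusted p = 3.07e-05), PFKFB4 (1.06, 0.000137), ENO2 (0.66, 0.00454), LDHA (0.67, 0.000849), PDK1 (0.83, 0.00542) and GBE1 (0.60, 0.0197), each given as its log2 fold change and adjusted p in edgeR with the block. Without the block their adjusted p was, in that order, 0.4207, 0.0709, 0.4021, 0.1865, 0.5339 and 0.8999. The GBE1 libraries of Ni-W overlapped with UT in CPM (43.33 and 23.6, against 27.5 and 16.29). The Ni-W and UT libraries did not overlap in CPM for 15 genes that were higher, where 15.1% of all genes did so, and for 4 that were lower, where 14.1% did.

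Ni-W was also set against Ni-E directly. The unpaired edgeR fit called 0 genes in either direction, as for 0% of all genes, while at an unadjusted p below 0.05, 1 was higher and 6 lower, where 3.25% and 2.32% of all genes were, and DESeq2 called PFKFB4 lower, against 0.341%. With the block 7 genes were lower in Ni-W, against 1.8% of all genes, and BPGM higher, against 2.72%. The lower genes were PFKFB3 (-1.23, adjusted p = 0.000554), PFKFB4 (-0.93, 0.000843), ENO2 (-0.83, 0.00238), PDK1 (-0.80, 0.00992), SLC2A1 (-0.64, 0.00245), ALDOC (-0.63, 0.0171) and GPI (-0.62, 0.00446). Without the block their adjusted p went from 0.2431 at PFKFB4 to 0.9999 at PFKFB3, and that of BPGM was 0.6441. Beside these, 6 of the 14 urothelial markers were higher in Ni-W than in Ni-E with the block, and their part was not tested. The comparisons of Ni-E and of Ni-W with UT use the same UT libraries.

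Lists of other genes, chosen with earlier results of these data known, were counted beside these. Of 13 tested among 25 other glycolytic isozymes and transporters, the unpaired fit called 0 in Ni-E vs UT, and 2 were higher and 2 lower at an unadjusted p below 0.05, while DESeq2 called 1 higher. With the block 3 rose, TIGAR (1.04, adjusted p = 0.000247), which lowers fructose 2,6-bisphosphate, SLC16A7 (0.93, 0.00445), a monocarboxylate carrier, and SLC2A12 (0.83, 0.0239), a glucose transporter, and 2 fell, SLC2A6 (-0.61, 0.00627) and SLC2A10 (-0.60, 0.0162). Over all genes 7.64% rose and 5% fell with the block, and 7.19% were higher and 5.03% lower at an unadjusted p below 0.05. Of 16 tested other glycogen and gluconeogenesis genes, PYGL, the liver glycogen phosphorylase, rose with the block (0.64, adjusted p = 0.000844) and not without it. In the unpaired fit 1 gene of this list was higher at an unadjusted p below 0.05, and DESeq2 called 0. The 16 tricarboxylic acid cycle genes and the 7 further genes of the pyruvate dehydrogenase complex and pyruvate carboxylase had 0 calls in either edgeR fit and by DESeq2, and 0 at an unadjusted p below 0.05, with median log2 fold changes of -0.09 and -0.15 in the unpaired fit. Of 15 HIF targets outside glycolysis, 9 rose in the unpaired fit, against 1.45% of all genes, and 15 with the block, against 7.64%. At an unadjusted p below 0.05, 15 were higher and 0 lower, and DESeq2 called 12 higher, against 2.79%. Their median log2 fold change was 1.39 in the unpaired fit. By adjusted p in that fit the first were BHLHE40 (2.15, 0.00895), a transcriptional repressor, BNIP3 (1.95, 0.0113), a mitophagy receptor, HILPDA (adjusted p = 0.0228), a lipid droplet protein, and P4HA2 (1.45, 0.0228), a collagen prolyl hydroxylase. In Ni-W vs UT 2 of the 15 rose without the block, against 0.503% of all genes, and 12 with it, against 5.79%.

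H3K4me3, a mark of active promoters, was measured in BEAS-2B cells over 2 kb on each side of each start, as RPKM. These are other cells than RT4, with 1 library for each condition, so no test was made and the intervals given cover counting error of the recovered reads only. Of 8 epithelial marker promoters, 5 had at least 1 RPKM in UT cells, and KRT5, KRT19 and TP63 had less. The 37 counted genes had a median of 7.27 RPKM in UT, 6.37 in Ni-E and 4.16 in Ni-W, compared with 1.57, 1.39 and 1.12 over all promoters, and 32 of the 37 were above the median of all promoters in each library. The highest in UT were GAPDH at 14.2 RPKM, SLC16A1 at 14.0 and GYS1 at 13.4. SLC2A3, HK1, ALDOC and FBP1 were below 1 RPKM in all 3 libraries, which leaves 33 genes for ratios. HK1 has 7 annotated starts in RefSeq, while the files give it 1 value. Reads in promoters were 37.6% of the depth in UT, 36% in Ni-E and 22.9% in Ni-W, and ratios were taken after division by the library median. On the log2 scale the median of the Ni-E library differed from that of UT by -0.18, and that of the Ni-W library by -0.49 from UT and by -0.31 from Ni-E.

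In Ni-E vs UT no promoter of the 33 passed 1.5-fold in either direction, where 1.01% and 0.595% of all promoters did. The ratios went from 0.768 at PFKFB4 to 1.26 at HK2. PFKFB4, whose transcript rose in RT4 cells, had 3.5 RPKM in UT, 2.38 in Ni-E and 1.61 in Ni-W (Ni-E ratio 0.768, interval 0.664 to 0.888). LDHA had 9.64, 9.90 and 4.81 RPKM and ENO2 6.55, 5.79 and 3.48, with Ni-E ratios of 1.16 and 1.00. The median log2 ratio was 0.14, compared with 0.11 over all promoters, and without median scaling it was -0.04.

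In Ni-W vs UT the median log2 ratio was -0.44, compared with -0.32 over all promoters. Promoters were also grouped by their RPKM in Ni-E, the library outside the comparison. At 2 to 4, 4 to 8 and 8 to 16 RPKM the median was -0.594, -0.389 and -0.451 for 3, 17 and 12 of these genes. Over all promoters at these levels it was -0.309, -0.351 and -0.35. Of the 33 genes, 6 were lower by 1.5-fold, a share close to the 18.4% of all promoters. PGM2 had 6.89, 6.37 and 2.88 RPKM in UT, Ni-E and Ni-W, a ratio of 0.586 (0.515 to 0.666), or -0.491 as the chromatin dynamic score, the difference of square roots of the scaled levels. PFKFB3 had 5.43, 5.47 and 2.4 RPKM, a ratio of 0.618 (0.535 to 0.712). PFKFB4 followed with 0.644, PDHA1 with 0.649, from 4.47, 4.93 and 2.07 RPKM, HK2 with 0.662, from 2.7, 3.01 and 1.28, and PFKP with 0.662, from 11.3, 10.2 and 5.34. In these promoters the Ni-W library was the lowest of the 3 in RPKM, which is not particular to them. Of the 33 promoters, 32 had fewer RPKM in Ni-W than in UT, and 32 fewer than in Ni-E. PDK4 alone was higher by 1.5-fold, where 4.39% of all promoters were, with 0.934, 0.96 and 1.04 RPKM and a ratio of 1.57 (1.2 to 2.05). It reached 1 RPKM in the Ni-W library only, and so entered the ratios only through the library in which it was higher. With at least 3 RPKM in any library the count was 0, where 232 of 11785 promoters were higher. MPC2 and GBE1 had ratios of 1.39 and 1.40, but the MPC2 window overlaps that of DCAF6. These calls depend on the scaling, since quantile normalization left 0 of the 33 lower and 2 higher, and unscaled values put 26 lower and 0 higher. Over all 14127 promoters, quantile normalization put 761 lower and 1135 higher, and unscaled values 10035 lower and 261 higher.

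In Ni-W vs Ni-E 11 of the 33 were lower, where 30.3% of all promoters were, and 0 higher, where 4.07% were. Beside the HK2 (0.527), PFKFB3 (0.543), PGM2 (0.56), PFKP (0.651) and PDHA1 (0.521) promoters they were LDHA (0.602), ENO1 (0.606), GYS1 (0.613), TPI1 (0.64), SLC2A1 (0.665) and GAPDH (0.666). With quantile normalization 1 was lower and 1 higher, where 858 and 1130 of all 14127 promoters were. The starts of PFKM, ENO1, MPC2 and GYS1 have another listed gene's start within 4 kb, so that the measured windows overlap and share reads. SLC2A3, PFKFB2 and SLC16A1 were not checked for this.

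**Figure D4:**
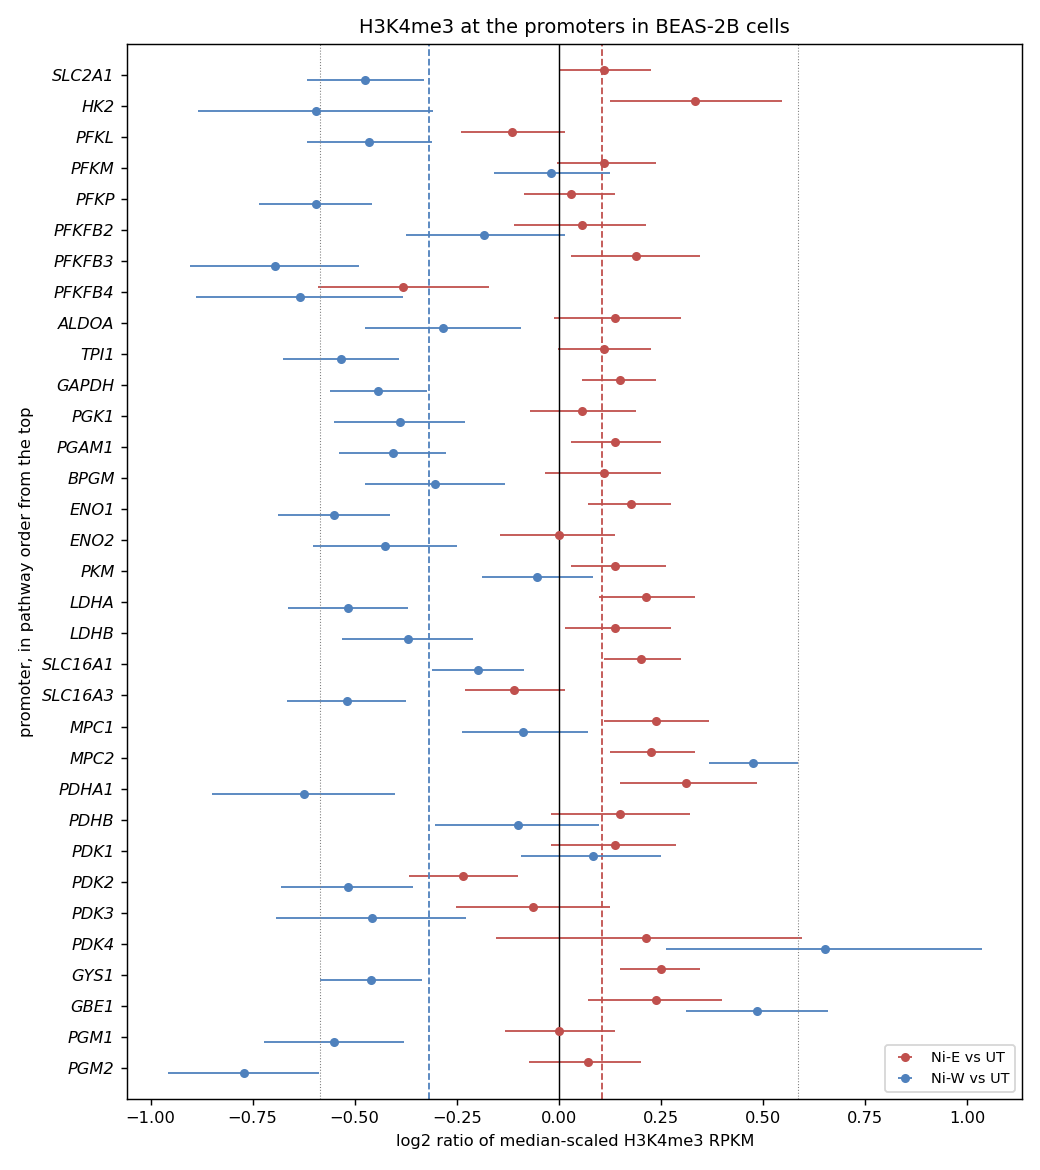
Log2 ratio of median-scaled H3K4me3 RPKM (x axis) at 33 promoters in pathway order (y axis), red for Ni-E vs UT and blue for Ni-W vs UT, with 95% counting intervals as bars, dotted lines at 1.5-fold and dashed lines at the median of all promoters. No red point lies past 1.5-fold, and 6 blue points lie past it on the left and 1, PDK4, on the right.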

How the data were processed

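RT4 RNA-Seq libraries (2 a condition) and BEAS-2B H3K4me3 libraries (1 a condition) were grouped by their titles. Each RNA-Seq table deposited by the authors gives estimated counts from RSEM beside TPM and FPKM. The deposited FPKM entered no result. Per the methods, RNA reads were aligned to hg19 with STAR, while the submitters' processing notes name GRCh38. The RSEM version is not given in the sources used here. The deposited H3K4me3 values are RPKM of promoters, 2 kb on each side of the start, from BWA alignments (hg38) in which the authors had removed redundant copies.

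The estimated counts, rounded, entered edgeR's quasi-likelihood test (TMM, filterByExpr, 1 model of 3 groups, Benjamini-Hochberg adjustment over 14502 genes), called below 0.05 at 1.5-fold or more. The filter removed none of the 38 genes. Adjusted p-values are edgeR's unless DESeq2 is named. Standard errors (SE) were derived from the test, as the absolute log2 fold change divided by the square root of its F statistic. Between 97.87% and 97.99% of estimated counts were whole. Several of these genes have processed pseudogenes, and ENO1 overlaps ENO1-AS1, with no strand stated for the counting, so their reads may be divided. TPM was used for levels and shares. The pairing comes from the titles, where 1 library a condition carries a duplicate suffix. Differences between the libraries correlated at 0.657, 0.764 and 0.689 over 14502 genes between conditions, which was taken as pairing. With 2 libraries a condition these are 3 views of the same division, and the labels do not say what the suffix marks. The methods speak of biological replicates.

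RPKM were whole multiples of 1 read within 0.1 read for 100% of values, giving depths of 28385725 (UT), 37493949 (Ni-E) and 29933551 (Ni-W) reads and floors (3 reads) of 0.0264, 0.02 and 0.0251 RPKM. Ratios were taken among 14127 promoters with at least 1 RPKM in any library. Alternatives were DESeq2, RLE factors, other filters, limma on log2(TPM + 1) and log2(TPM + 0.1), the block, only the 2 groups, each library left out, and other promoter scalings and filters.

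The genes and lists were chosen with earlier results of these data known. All 38 genes are described. Genes of other lists are named where called, at most 4 a list by adjusted p, with the 5 of the isozyme list all named. The list of pentose phosphate genes is not reported here. Scripts were tested on simulated data. Tests ran in edgeR 4.0.16, DESeq2 1.42.0 and limma 3.58.1 under R 4.3.3. Promoter values and figures used matplotlib 3.10.9, scipy 1.17.1, pandas 2.3.3 and numpy 2.4.6 under Python 3.11.15.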

Additional observations from a re-analysis of the deposited data

How the results depend on the processing

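Genes called higher in Ni-E vs UT numbered 4 in the unpaired fit, 9 with DESeq2, 18 with the replicate block and 0 to 5 when single libraries were left out, and those called lower 0 and, with the block, 3. In Ni-W vs UT 1 was higher in the unpaired fit, 3 with DESeq2 and 2 without the filter on low counts. With at least 10 counts in every library, which removes SLC2A3, the count was 0, and with only the 2 groups compared 0. It was 2 by limma on log2(TPM + 0.1) and 8 with the block, and with the block 1 was lower. Over all genes, DESeq2 called 342 of 19464 higher and the fit without the filter 162 of 19464. For DESeq2 this total counts genes with a p-value, while its percentages given above were taken over genes with an adjusted p. With at least 10 counts in every library 46 of 13180 were higher, and by limma on log2(TPM + 0.1) 63 of 13137. With only the 2 groups compared 0 of 14259 genes were higher. By limma on log2(TPM + 1) the gene called was BPGM. In Ni-W vs Ni-E, DESeq2 called 1 lower and the block 7 lower and 1 higher. The median log2 fold change of the genes ranged from 0.42 to 0.58 in Ni-E vs UT, from 0.11 to 0.32 in Ni-W vs UT and from -0.31 to -0.15 in Ni-W vs Ni-E with single libraries left out. In Ni-W vs UT it was 0.24 with at least 10 counts in every library and 0.29 by limma with either pseudocount (0.291 and 0.292), and in Ni-W vs Ni-E -0.18 by limma on log2(TPM + 1). No gene called in either edgeR fit changed direction in RT4 under these alternatives, and the block changed no call of the 38 genes beyond those given in the report. For H3K4me3 in Ni-E vs UT, 1 promoter, SLC2A3, was higher with at least 3 reads in both libraries, where 3002 of 25046 were. The median turned to -0.038 without median scaling. In Ni-W vs UT the higher promoters numbered 0 without scaling, 2 with quantile normalization, 0 for the ratio of median-scaled (RPKM + 1) and 0 with at least 3 RPKM. Over all promoters these were 261, 1135 and 295 of 14127, and 232 of 11785. The lower ones numbered 26 without scaling and 0 with quantile normalization, where 10035 and 761 of 14127 were, and the median was -0.93 and -0.17. In Ni-W vs Ni-E quantile normalization gave 1 higher and 1 lower, no scaling 24 lower, and the median was -0.73 without scaling and -0.038 with quantile normalization. Over all 14127 promoters quantile normalization gave 1130 higher and 858 lower, and no scaling 9009 lower. The cause of these differences was not tested. Depth limits SLC2A3, which had 2 reads in all in UT and is among the genes called higher with the block in Ni-E and in Ni-W vs UT.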
